A study of Mus musculus with 31 samples.

Results

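Translation initiation factors load the initiator methionyl-tRNA and the mRNA onto the small ribosomal subunit and find the start codon. The factor eIF2 carries the initiator tRNA and eIF2B recharges eIF2 with GTP, which kinases of the integrated stress response, PERK among them, block by phosphorylating eIF2. The eIF4 group binds and unwinds the capped end of the mRNA, and the 4E-binding proteins (4E-BPs) hold the cap-binding protein eIF4E when mTORC1 signalling is low. The liver makes large amounts of secreted protein, and this control of initiation limits the load on its endoplasmic reticulum (ER) when folding fails.

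The genes described here are the 37 mouse genes of the array annotation whose symbol begins with Eif and a digit between 1 and 6, without the eIF2 kinases named Eif2ak, out of 17097 genes with a probe set of 1 symbol. They fell by role into 2 genes of 4E-BPs, 9 of the eIF4 group, 5 of eIF2 and other initiator tRNA carriers, 4 of eIF2B, 10 of eIF3 and 7 of start site selection and subunit joining. Each gene was read from its brightest probe set among 82 in all, and 25 of the 37 genes had more than 1 probe set. Another 5 probe sets matched a second gene as well and were left out, and Eif4ebp3, Eif2s1 and Eif4g1 were not analysed here.

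Total liver RNA of male mice was hybridised to Affymetrix arrays, 31 in all, in 8 groups. The Xbp1 experiment compared Xbp1 ko mice with their WT littermates, 4 arrays each, c57BL/6 mice of 14 weeks in the fed state. A second set held Xbp1 ko mice of 9 weeks, 8 days after injection of IRE1 siRNA or of luciferase siRNA, 4 arrays each, so that both of its groups carried the Xbp1 ko. These mice were c57BL/6 too. The Ire1 experiment compared Ire1 ko and WT mice of 14 weeks, each 6 h after 2 mg/kg tunicamycin, a blocker of N-linked glycosylation that causes ER stress, or untreated in the fed state. Untreated Ire1 ko had 3 arrays and the other 3 groups 4 each. No group given vehicle alone is among the 8, so effects of tunicamycin and of giving it cannot be told apart. The labels call arrays of a group biological replicates, and do not name the Cre or allele behind either ko. They give a mixed strain for Ire1 ko and c57BL/6 for the WT mice, so genotype and strain cannot be told apart in the Ire1 experiment. The study's stated aim was to find targets of XBP1 and mRNAs cut by IRE1 in the liver.

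Intensities are linear and rounded to whole numbers, with a median of 5 on every array, and 35 of the 37 genes had a mean intensity of at least 16 over the 31 arrays. Eif2b5 averaged 4.32 and Eif4e 8.84. Eif2b5 did not pass the filter on dim genes in the Xbp1 and siRNA experiments. All 8 hepatocyte markers had a mean of at least 16 in each group, as did 0 of the cholangiocyte and 0 of the lymphocyte markers. By group, 7 or 8 of 8 Kupffer cell and macrophage markers and 5 or 6 of 8 endothelial markers reached that mean. So did 1 to 3 of 8 stellate cell and fibroblast markers and 1 or 2 of 3 erythroid cell and neutrophil markers. Xbp1 averaged 470 ± 80.3 in Xbp1 ko and 944 ± 140 in WT littermates (SD, n = 4 each). Ern1, the gene of IRE1, lay between 169 and 236 on arrays labelled IRE1 siRNA and between 18 and 35 on arrays labelled luciferase siRNA, which goes against those labels. Ern1 lay between 148 and 153 in untreated Ire1 ko and between 121 and 203 in untreated WT, so this probe set gave no check of the Ire1 ko. A gene was called at an adjusted p under 0.05 (limma, Benjamini-Hochberg over all genes tested).

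The initiation factor genes responded to tunicamycin in both genotypes. In Ire1 ko liver 25 of 37 rose and 2 fell, where 17.4% of the 15172 genes tested rose and 10.3% fell. In WT liver 24 of 37 rose and 2 fell, where 18.5% of genes rose and 17.6% fell. Bright genes were called more often: among genes with a mean intensity of at least 16, 32.2% rose and 22% fell in Ire1 ko, and 32.4% rose and 34% fell in WT. The median log2 fold change of the 37 genes was 0.54 in Ire1 ko and 0.53 in WT, while the medians of all genes tested were 0 in Ire1 ko, to 2 decimals, and -0.02 in WT. Scaling each array to a common median of its bright probe sets moved the median of all genes to -0.17 in Ire1 ko and -0.14 in WT, and that of the initiation factor genes to 0.36 and 0.41, with 19 and 22 of them called higher.

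**Figure D1:**
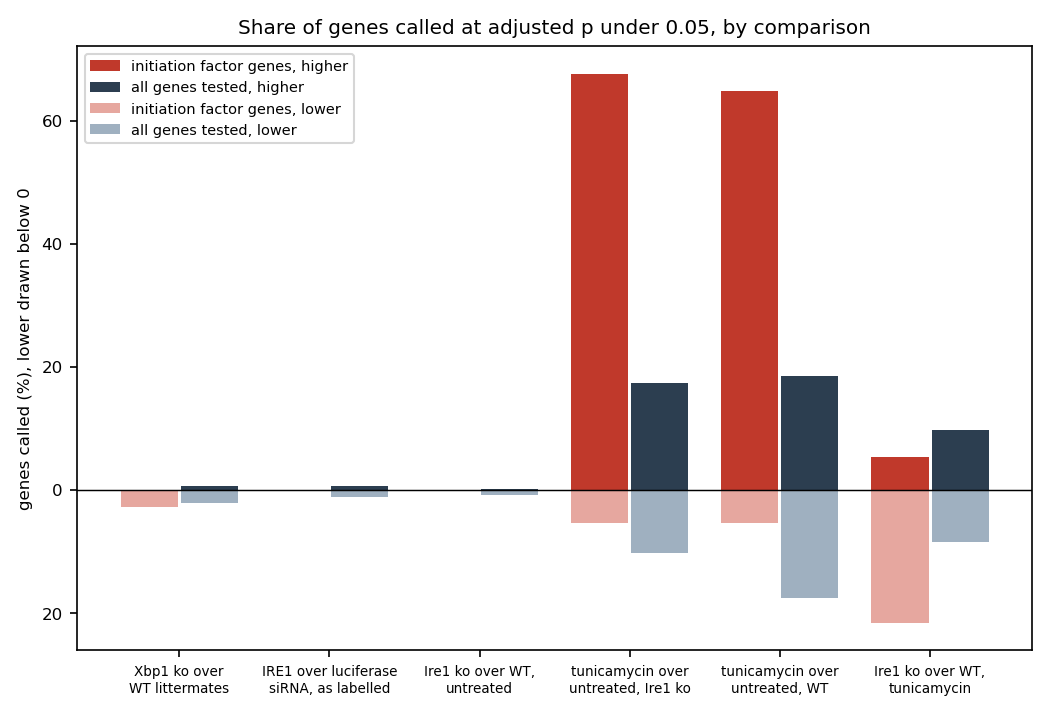
Percent of genes called at an adjusted p under 0.05 in each comparison, higher drawn above 0 and lower below it; left bars are the initiation factor genes (36 or 37 tested) and right bars all genes tested. After tunicamycin 67.6% of the initiation factor genes rose in Ire1 ko and 64.9% in WT, against 17.4% and 18.5% of all genes.

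Of the genes that rose, 22 were called in both genotypes, 88% of the Ire1 ko list and 91.7% of the WT list. Over all genes, 1905 rose in both, 72.3% of 2634 in Ire1 ko and 67.9% of 2807 in WT. Eif1ax, Eif1b and Eif4b were called in Ire1 ko and not in WT, and Eif2d and Eif4e in WT and not in Ire1 ko. The interaction, which tests the difference of the tunicamycin effects, was called for 2 of 37 genes, Eif4e and Eif4g3, where 7.53% of all genes were called (3.58% higher and 3.95% lower). Of 5831 bright genes, 436 were called higher and 436 lower in the interaction. Eif3f and Eif4ebp2 fell in both genotypes.

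**Figure D2:**
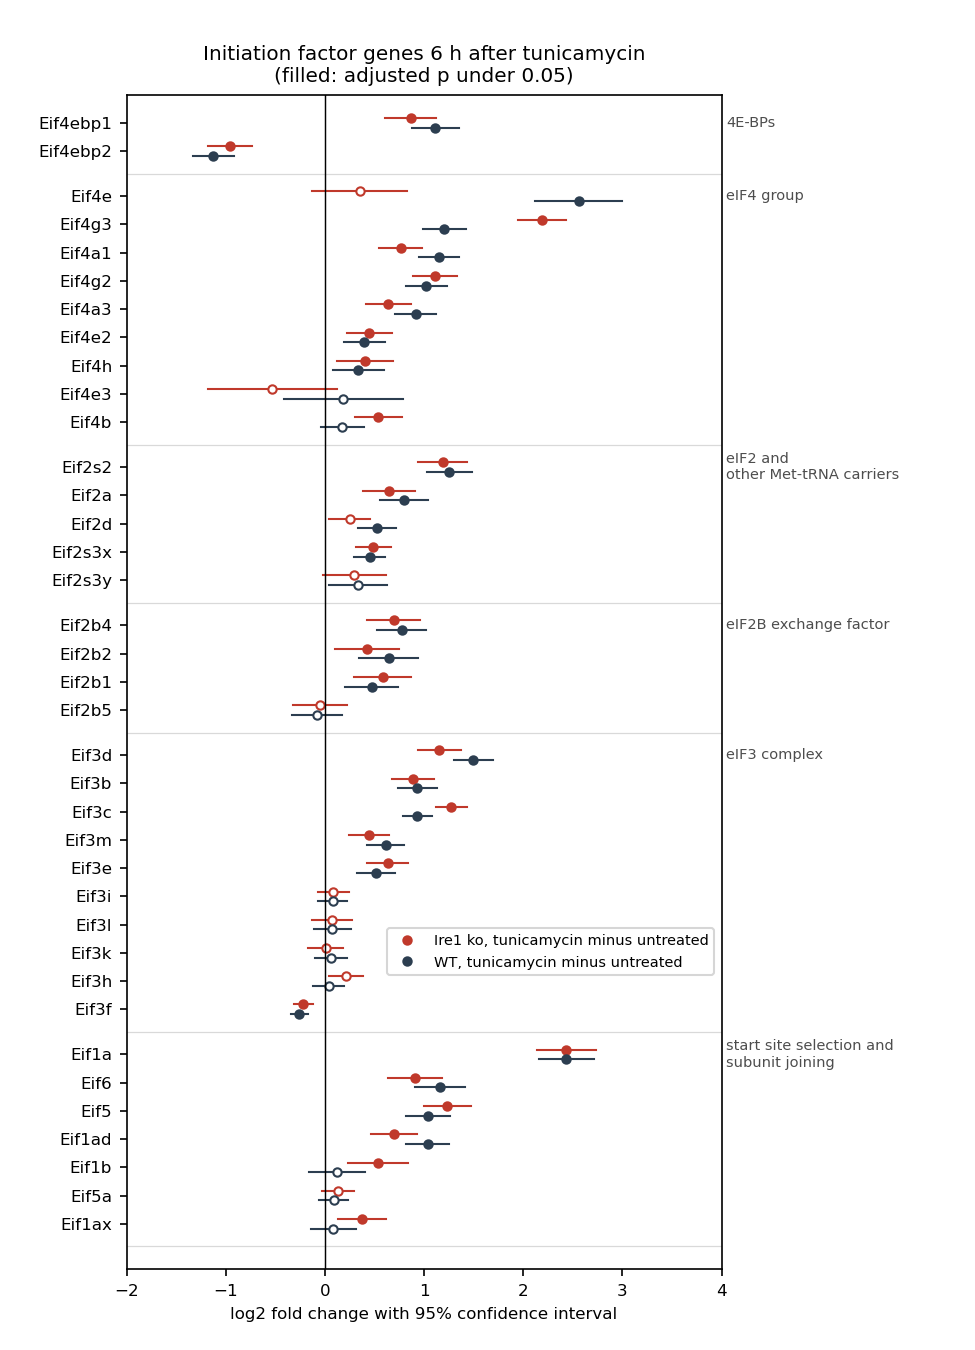
log2 fold change after tunicamycin with its 95% confidence interval for each of the 37 genes, grouped by role, in Ire1 ko (upper point, red) and WT (lower point, dark); filled points passed the adjusted p threshold. Eif1a moved by 2.44 in Ire1 ko and 2.43 in WT, while Eif4e and Eif4g3 differed between the genotypes.

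The 2 genes of 4E-BPs moved in opposite directions. Eif4ebp1, which encodes 4E-BP1, stood at 543, 481, 489 and 531 in Ire1 ko after tunicamycin, against 318, 281 and 247 in untreated Ire1 ko. It stood at 558, 684, 449 and 559 in WT after tunicamycin, against 258, 265, 266 and 241 in untreated WT. In both genotypes every treated array lay above every untreated one. Eif4ebp1 rose 1.82-fold in Ire1 ko (log2 0.86, SE 0.121, adjusted p = 4.45e-05) and 2.16-fold in WT (log2 1.11, SE 0.112, adjusted p = 5.69e-07). The other Eif4ebp1 probe set averaged 4.71, at the floor, and with the mean over both the changes were 0.42 (adjusted p = 0.0112) and 0.55 (adjusted p = 0.000561).

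Eif4ebp2, which encodes 4E-BP2, stood at 77, 81, 80 and 76 in Ire1 ko after tunicamycin, against 153, 160 and 145 in untreated Ire1 ko. It stood at 73, 66, 71 and 65 in WT after tunicamycin, against 154, 128, 151 and 169 in untreated WT. The treated arrays lay below all untreated arrays, and the treated Ire1 ko arrays, at 76 or more, lay just above the treated WT arrays, at 73 or less. The log2 fold change was -0.96 in Ire1 ko (SE 0.103, adjusted p = 2.94e-06) and -1.12 in WT (SE 0.0955, adjusted p = 8.61e-08). Both other Eif4ebp2 probe sets with a mean intensity above 16 fell too, with log2 fold changes of -1.16 and -1.30 in Ire1 ko and -1.86 and -1.59 in WT. The difference of the tunicamycin effects, Ire1 ko minus WT, was -0.25 for Eif4ebp1 (95% confidence interval -0.60 to 0.10, adjusted p = 0.478) and 0.17 for Eif4ebp2 (-0.13 to 0.46, adjusted p = 0.603).

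**Figure D3:**
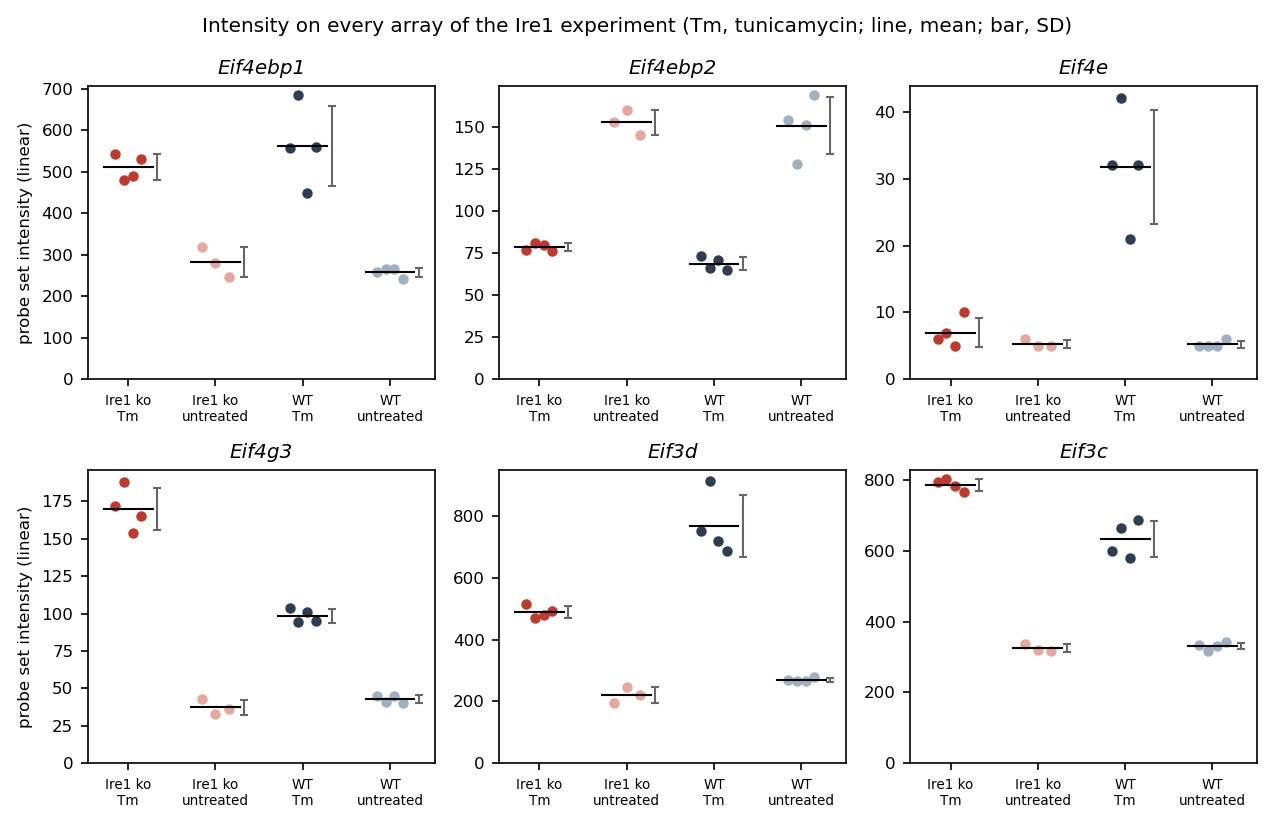
Probe set intensity (linear) on each array of the Ire1 experiment for 6 genes, with tunicamycin (Tm) arrays left of untreated ones and Ire1 ko left of WT; lines are means and bars SD. Eif4ebp1 and Eif4ebp2 moved in opposite directions, Eif4e rose above 20 on WT tunicamycin arrays alone, and Eif4g3 stood highest in treated Ire1 ko.

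Of the eIF4 group, 7 of 9 genes rose in each genotype and 0 fell. Among bright genes 32.2% rose in Ire1 ko and 32.4% in WT. Eif4e, the cap-binding subunit, stood at 6, 7, 5 and 10 in Ire1 ko after tunicamycin and at 6, 5 and 5 in untreated Ire1 ko. It stood at 32, 42, 21 and 32 in WT after tunicamycin, against 5, 5, 5 and 6 in untreated WT. Outside the treated WT arrays the values were at the median of the arrays or near it, so this probe set gave a level of Eif4e in treated WT only. The fold changes of Eif4e start from that floor. On this scale Eif4e rose by 2.56 in WT (SE 0.208, adjusted p = 5.22e-08), and its change in Ire1 ko was 0.35 (SE 0.225, adjusted p = 0.302). The difference of these effects, Ire1 ko minus WT, was -2.21 (SE 0.306, adjusted p = 0.000225). It was the only Eif4e probe set of 1 symbol, so there was no second reading of the gene.

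Eif4g3, a scaffold of the cap complex, rose in both genotypes and more in Ire1 ko. It stood at 172, 188, 154 and 165 in Ire1 ko after tunicamycin, against 43, 33 and 36 in untreated Ire1 ko. It stood at 104, 94, 101 and 95 in WT after tunicamycin, against 45, 41, 45 and 40 in untreated WT. Treated Ire1 ko arrays lay above all treated WT arrays, which lay above all untreated arrays. By its brightest probe set Eif4g3 rose 4.56-fold in Ire1 ko (log2 2.19, SE 0.112, adjusted p = 8.95e-10) and 2.31-fold in WT (log2 1.20, SE 0.104, adjusted p = 1.06e-07). The difference of these effects was 0.98 (SE 0.153, adjusted p = 0.000632). Its other 2 probe sets averaged 5.07 and 4.52, and taking the mean over all of them gave rises of 0.85 in Ire1 ko and 0.51 in WT and a difference of 0.34 (adjusted p = 0.0932), the one setting run under which the Eif4g3 call was lost.

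Eif4a1, the helicase that unwinds the leader of the mRNA, stood at 630, 684, 629 and 665 in Ire1 ko after tunicamycin, against 380, 377 and 396 in untreated Ire1 ko. It stood at 777, 969, 701 and 741 in WT after tunicamycin, against 372, 309, 388 and 361 in untreated WT. It rose by 0.76 (SE 0.104, adjusted p = 3.65e-05) and 1.15 (SE 0.0966, adjusted p = 7.61e-08) on the log2 scale. Eif4g2, which encodes an eIF4G relative without an eIF4E-binding part, rose by 1.11 in Ire1 ko (adjusted p = 7.86e-07) and 1.02 in WT (adjusted p = 2.94e-07), or by 0.50 in each with the mean over its probe sets. Eif4a3, a helicase of the exon junction complex, rose by 0.64 and 0.91. With the mean over probe sets the Eif4a3 call was lost in Ire1 ko (log2 0.25, adjusted p = 0.0741), and the WT value was 0.38. Eif4e2, a cap-binding protein that represses translation, rose by 0.45 and 0.40, and Eif4h, a helper of the helicase, by 0.40 and 0.34. These calls of Eif4e2 and Eif4h were lost in both genotypes with arrays scaled to a common median, with the mean over probe sets and with the next brightest probe set of each gene. The Eif4h calls (adjusted p = 0.0333 in Ire1 ko and 0.0419 in WT) were also lost with no filter, and in WT with no intensity trend. With 1 array left out, the Eif4h call held in 11 of 15 fits in Ire1 ko and 10 of 15 in WT. Eif4b, another helper of the helicase, rose by 0.54 in Ire1 ko (adjusted p = 0.00134), and its change in WT was 0.18 (adjusted p = 0.213). Eif4e3, a further cap-binding relative, spread from 19 to 36 in treated and from 20 to 52 in untreated Ire1 ko and was not called in either genotype. Scaling arrays to a common median gave Eif4e3 a call in Ire1 ko (log2 -0.70, adjusted p = 0.0418), as did quantile normalization (log2 -0.77, adjusted p = 0.0435).

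Promoter sequence from RefSeq (GRCm38.p6) was at hand for 29 of the 37 genes. The 250 bases before each start were searched on both strands for the E-box CACGTG, the ATF4 composite site TGATGNAAN, the ER stress element (CCAAT, 9 bases of any kind, then CCACG) and the XBP1-type element TGACGTGG, where N is any base. The CCACG end can overlap an E-box. A gene counted when any of its starts had a match, so genes with more starts, as Eif5a with 6, had more sequence searched. An E-box was found in 7 of the 29 genes (Eif1b, Eif3f, Eif3k, Eif4a1, Eif4e, Eif4h and Eif5a), against 6.86% of 27025 genes. The ATF4 site was found in 1 of 29, Eif2s3x, against 3.89% of genes, and the other 2 elements in 0 of 29, against 0.13% and 0.603%. Printed here are the promoters of Eif4e and Eif4g3, whose responses differed between genotypes, of Eif4ebp2, which fell, and of Eif2s3x, which had the ATF4 site, with matches in capitals. Eif4e has 2 starts in the table, and the second, at chr3:138527018-138527267 on the plus strand, held both of its E-boxes.
Eif4e: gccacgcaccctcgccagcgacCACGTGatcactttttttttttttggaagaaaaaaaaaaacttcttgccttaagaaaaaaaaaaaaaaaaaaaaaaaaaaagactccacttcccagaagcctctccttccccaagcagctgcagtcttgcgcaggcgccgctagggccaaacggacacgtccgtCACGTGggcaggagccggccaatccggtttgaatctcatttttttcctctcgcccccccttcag
Eif4g3 (chr4:137993205-137993454, plus strand, no match): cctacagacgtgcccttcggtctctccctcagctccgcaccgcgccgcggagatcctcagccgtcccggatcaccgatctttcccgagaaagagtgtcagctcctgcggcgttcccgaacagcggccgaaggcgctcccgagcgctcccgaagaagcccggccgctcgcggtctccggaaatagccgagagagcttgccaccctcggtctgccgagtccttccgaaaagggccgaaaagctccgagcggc
Eif4ebp2 (chr10:61452670-61452919, minus strand, no match): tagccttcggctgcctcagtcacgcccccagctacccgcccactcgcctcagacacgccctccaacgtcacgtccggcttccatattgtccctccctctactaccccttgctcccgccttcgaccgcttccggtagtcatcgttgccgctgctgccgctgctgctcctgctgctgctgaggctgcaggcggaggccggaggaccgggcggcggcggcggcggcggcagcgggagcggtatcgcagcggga
Eif2s3x (chrX:94212652-94212901, minus strand, ATF4 site): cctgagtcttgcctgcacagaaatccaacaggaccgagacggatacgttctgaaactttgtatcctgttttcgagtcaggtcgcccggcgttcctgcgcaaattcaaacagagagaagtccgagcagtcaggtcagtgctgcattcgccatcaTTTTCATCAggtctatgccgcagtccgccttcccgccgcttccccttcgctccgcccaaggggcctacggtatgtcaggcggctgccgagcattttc
A match is a string of letters and was not tested as a binding site.

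Among eIF2 and the other initiator tRNA carriers, 3 of 5 genes rose in Ire1 ko and 4 of 5 in WT. The shares of bright genes that rose were 32.2% and 32.4%. Eif2s2, the beta subunit of eIF2, stood at 299, 264, 281 and 266 in Ire1 ko after tunicamycin, against 113, 133 and 120 in untreated Ire1 ko. It stood at 372, 384, 362 and 339 in WT after tunicamycin, against 126, 160, 184 and 146 in untreated WT. It rose by 1.19 in Ire1 ko (SE 0.115, adjusted p = 1e-06) and by 1.25 in WT (SE 0.106, adjusted p = 8.6e-08), with no overlap between treated and untreated arrays. With the mean over probe sets the Eif2s2 rise in Ire1 ko was 0.78. Eif2s3x, the gamma subunit whose promoter is printed above, rose by 0.49 and 0.45. Its Y-linked copy Eif2s3y changed by 0.30 and 0.33 and was not called (adjusted p = 0.172 and 0.0753). Whether probe sets tell such close copies apart, these or Eif1a and Eif1ax, was not tested. Eif2a, a separate tRNA carrier that is not the phosphorylated eIF2 subunit, rose by 0.65 and 0.80. Eif2d, a factor that can deliver tRNA without GTP, rose by 0.53 in WT (adjusted p = 0.000165), and its change in Ire1 ko was 0.25 (adjusted p = 0.0713). The WT call of Eif2d was lost with its next brightest probe set (log2 0.29, adjusted p = 0.0878), and the WT value with the mean over probe sets was 0.32.

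Of the eIF2B genes, 3 of 4 rose in both genotypes, where 32.2% of bright genes rose in Ire1 ko and 32.4% in WT. Eif2b4, the delta subunit, stood at 173, 187, 169 and 173 in Ire1 ko after tunicamycin, against 127, 109 and 92 in untreated Ire1 ko. It stood at 221, 244, 200 and 210 in WT after tunicamycin, against 149, 120, 136 and 109 in untreated WT. The treated and untreated arrays did not overlap, and Eif2b4 rose by 0.69 (SE 0.126, adjusted p = 0.000511) and 0.77 (SE 0.117, adjusted p = 5e-05). Eif2b1 and Eif2b2, the alpha and beta subunits, rose by 0.58 and 0.43 in Ire1 ko and by 0.47 and 0.64 in WT. The Eif2b2 call in Ire1 ko (adjusted p = 0.0461) was lost when any of 10 of the 15 arrays was left out, each untreated Ire1 ko array among them, and under both other scalings (adjusted p up to 0.377). Eif2b5, the catalytic epsilon subunit, stayed between 4 and 5 on every array, at the floor, so no level of it could be read.

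Of the eIF3 genes, 5 of 10 rose, 1 fell and 4 were not called in each genotype. Among bright genes 32.2% rose and 22% fell in Ire1 ko, and 32.4% rose and 34% fell in WT. Eif3d, a subunit that can itself bind the cap of some mRNAs, stood at 516, 470, 480 and 492 in Ire1 ko after tunicamycin, against 196, 246 and 220 in untreated Ire1 ko. It stood at 751, 912, 717 and 686 in WT after tunicamycin, against 270, 266, 266 and 279 in untreated WT. Every treated array lay above every untreated one, and all treated WT arrays above all treated Ire1 ko arrays. Eif3d rose 2.23-fold in Ire1 ko (log2 1.16, SE 0.0999, adjusted p = 3.06e-07) and 2.82-fold in WT (log2 1.50, SE 0.0925, adjusted p = 2.19e-09). With the mean over probe sets the Eif3d rises were 0.54 and 0.71.

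Eif3c, a core subunit, stood at 793, 803, 782 and 764 in Ire1 ko after tunicamycin, against 337, 321 and 318 in untreated Ire1 ko. It stood at 600, 663, 580 and 687 in WT after tunicamycin, against 335, 318, 330 and 341 in untreated WT. Here treated Ire1 ko arrays lay above all treated WT arrays. Eif3c rose by 1.27 (SE 0.074, adjusted p = 3.78e-09) and 0.93 (SE 0.0685, adjusted p = 1.61e-08), and the difference of these effects was 0.34 (95% confidence interval 0.13 to 0.55, adjusted p = 0.0515). The second Eif3c probe set rose by 1.41 and 1.12.

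Eif3b rose by 0.89 in Ire1 ko and 0.93 in WT. Eif3e rose by 0.63 and 0.52, and Eif3m by 0.44 and 0.61. The Ire1 ko call of Eif3m was lost with the common median (log2 0.27, adjusted p = 0.0809). Eif3h, Eif3i, Eif3k and Eif3l were not called, and their log2 fold changes lay between 0.01 (Eif3k) and 0.21 (Eif3h) in Ire1 ko and between 0.04 (Eif3h) and 0.08 (Eif3i) in WT. With arrays scaled to a common median the 4 changes were negative in WT, and 3 of them in Ire1 ko, all without a call. Quantile normalization gave Eif3h a call in Ire1 ko (log2 0.23, adjusted p = 0.032). Eif3f, the one eIF3 gene that fell, changed by -0.22 in Ire1 ko (SE 0.0454, adjusted p = 0.0015) and -0.26 in WT (SE 0.042, adjusted p = 0.000103). Its second probe set went the other way, with 0.30 in Ire1 ko (adjusted p = 0.0629) and 0.39 in WT (adjusted p = 0.00593), so the direction of Eif3f depends on the probe set.

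Of the genes of start site selection and subunit joining, 6 of 7 rose in Ire1 ko and 4 of 7 in WT. The shares of bright genes that rose were 32.2% and 32.4%. Eif1a encodes eIF1A, which opens the small subunit for scanning. It stood at 365, 377, 415 and 416 in Ire1 ko after tunicamycin, against 78, 67 and 73 in untreated Ire1 ko. It stood at 504, 625, 481 and 523 in WT after tunicamycin, against 120, 73, 101 and 105 in untreated WT. These rises, 5.41-fold in Ire1 ko (log2 2.44, SE 0.142, adjusted p = 3.87e-09) and 5.40-fold in WT (log2 2.43, SE 0.132, adjusted p = 5.11e-10), differed by 0.00 on the log2 scale (95% confidence interval -0.41 to 0.41). The second Eif1a probe set rose by 2.63 and 2.53.

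Eif1ax, the X-linked copy of Eif1a, had smaller fold changes. It stood at 158, 166, 144 and 139 in Ire1 ko after tunicamycin, against 132, 100 and 121 in untreated Ire1 ko. It stood at 127, 132, 121 and 122 in WT after tunicamycin, against 116, 103, 130 and 126 in untreated WT, so the WT groups overlapped. The change was 0.37 in Ire1 ko (adjusted p = 0.0232) and 0.08 in WT (adjusted p = 0.621). The Ire1 ko call of Eif1ax was lost with the common median (adjusted p = 0.2), with adjusted p between 0.0105 and 0.257 over all settings, and its next brightest probe set changed by -0.01 (adjusted p = 0.991).

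Eif5, which triggers GTP hydrolysis on eIF2, stood at 1127, 1309, 1102 and 1086 in Ire1 ko after tunicamycin, against 406, 610 and 477 in untreated Ire1 ko. It stood at 1046, 996, 1012 and 998 in WT after tunicamycin, against 497, 471, 464 and 545 in untreated WT. It rose by 1.23 (SE 0.112, adjusted p = 5.06e-07) and 1.04 (SE 0.104, adjusted p = 5.33e-07), with no overlap. Eif6, which keeps free large subunits from joining, rose by 0.91 and 1.16 (0.54 and 0.61 with the mean over probe sets), and Eif1ad, a protein with an eIF1A domain, by 0.70 and 1.03. Eif1b, a relative of eIF1, changed by 0.54 in Ire1 ko (adjusted p = 0.00981) and 0.12 in WT (adjusted p = 0.576). The Ire1 ko call of Eif1b was lost with the common median (adjusted p = 0.0628), with adjusted p between 0.00366 and 0.0717 over all settings. Eif5a, the hypusine-bearing factor that also serves elongation, changed by 0.13 and 0.09 and was called in neither.

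Markers of other liver cells were counted beside the shares of all genes. After tunicamycin 17.4% of all genes rose and 10.3% fell in Ire1 ko, and 18.5% rose and 17.6% fell in WT. Among bright genes 32.2% rose and 22% fell in Ire1 ko, and 32.4% rose and 34% fell in WT. The summed intensity of 8 Kupffer cell and macrophage markers lay between 727 and 979 in treated and between 695 and 2093 in untreated Ire1 ko, where 0 of 8 were called. It lay between 468 and 633 in treated and between 705 and 1383 in untreated WT, where 4 of 8 fell and 0 rose. Of 8 endothelial markers 1 fell in Ire1 ko, and 3 fell and 1 rose in WT. Of 7 stellate cell and fibroblast markers tested 1 fell in Ire1 ko and 2 in WT, and of 3 erythroid cell and neutrophil markers 1 fell in each. Hepatocyte markers summed to between 35263 and 40151 in treated and between 34509 and 40442 in untreated Ire1 ko, and to between 34324 and 36312 in treated and between 36261 and 40408 in untreated WT, with 2 of 8 higher and 1 lower in Ire1 ko and 1 higher and 3 lower in WT. Their part in the changes of the initiation factor genes was not tested, and in bulk liver fewer cells of a type and less RNA per cell cannot be told apart.

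Compared directly after tunicamycin, Ire1 ko and WT liver differed in 10 of 37 initiation factor genes. Eif3c and Eif4g3 were higher in Ire1 ko, where 9.68% of all genes were higher, and 8 genes were lower, where 8.5% of all genes were lower. Bright genes were called more often here too: of 5831, 1222 were higher and 938 lower. Eif4g3 was higher by 0.78 (SE 0.104, adjusted p = 4.05e-05) and Eif3c by 0.32 (SE 0.0685, adjusted p = 0.00336). With the mean over probe sets Eif4g3 was higher by 0.38. The Eif3c call was lost with its next brightest probe set (log2 0.35, adjusted p = 0.0757). Of the lower genes, Eif4e lay between 5 and 10 in treated Ire1 ko, at the floor, so the size of its change, -2.19 (adjusted p = 9.37e-07), is no measured fold. Eif3d changed by -0.64 (adjusted p = 9.65e-05), or -0.36 with the mean over probe sets, and Eif1ad by -0.52 (adjusted p = 0.00126). Eif3b changed by -0.47 (adjusted p = 0.00147), Eif2a by -0.43 (adjusted p = 0.0136) and Eif2s2 by -0.39 (adjusted p = 0.0155). The weakest were Eif1a at -0.43 (adjusted p = 0.0293) and Eif3m at -0.28 (adjusted p = 0.0358). The Eif1a call was lost when WT replicate 2 or 4 or Ire1 ko replicate 1 or 2 was left out (adjusted p up to 0.101). It was also lost with the mean over probe sets (log2 -0.33, adjusted p = 0.0975). The Eif3m call was lost when WT replicate 2 or 3 or Ire1 ko replicate 1, 3 or 4 was left out, and under both other scalings (adjusted p up to 0.109). With the replicate number as a block it was lost too (adjusted p = 0.0513). The second Eif1a probe set changed by -0.22 (adjusted p = 0.463). Neither 4E-BP gene was called, with Eif4ebp1 at -0.12 (95% confidence interval -0.36 to 0.11) and Eif4ebp2 at 0.19 (-0.01 to 0.40), and Eif4a1 was at -0.28 (adjusted p = 0.0572, and between 0.0197 and 0.228 over all settings).

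In untreated liver, Ire1 ko and WT differed in 0 of 37 initiation factor genes by limma's test, where 0.943% of all genes were called (0.0791% higher and 0.863% lower). At an unadjusted p under 0.05, 1 gene was higher and 5 were lower, or 2.7% and 13.5%, where 3.14% of all genes were higher and 6.35% lower. Of 5831 bright genes, 199 were higher and 611 lower at that level. In 4 of 37 genes (10.8%) all Ire1 ko arrays lay below all WT arrays, where 3.64% of all genes did, and in 0 above them, where 1.34% did. Eif3b, chosen after its values were seen for its smallest p, stood at 95, 102 and 85 in untreated Ire1 ko, against 144, 121, 122 and 120 in untreated WT, without overlap, for a log2 fold change of -0.43 (SE 0.1, adjusted p = 0.0569). Eif4e3 was at 47, 52 and 20 in untreated Ire1 ko, against 19, 16, 26 and 15 in untreated WT, which overlapped (log2 0.98, adjusted p = 0.218). Eif4ebp1 differed by 0.12 (95% confidence interval -0.13 to 0.38), Eif4ebp2 by 0.03 (-0.19 to 0.25), Eif4a1 by 0.11 (-0.11 to 0.33) and Eif4e, at its floor, by 0.02. Eif1a had the lowest log2 fold change of the 37 genes in untreated liver, -0.437, without a call, near its value between treated genotypes. Of the genes called between treated genotypes, only Eif4e and Eif4g3 were called in the interaction. For the others, a change of the genotype difference with tunicamycin was not shown. The genotype contrasts and the tunicamycin contrasts above share arrays.

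In the Xbp1 experiment 1 of 36 initiation factor genes was called, Eif1a, which was lower in Xbp1 ko. Among all genes tested 2.71% were called (0.642% higher and 2.07% lower), so this share is at the background. Eif1a stood at 70, 53, 62 and 50 in Xbp1 ko, against 102, 99, 94 and 98 in WT littermates. The groups did not overlap, and the log2 fold change was -0.75 (SE 0.114, adjusted p = 0.012). The call was lost without WT littermate replicate 1 (adjusted p = 0.0509) and with the replicate number as a block (adjusted p = 0.0732). Over all settings the adjusted p lay between 0.000203 and 0.0732. The second Eif1a probe set changed by -0.43 (adjusted p = 0.361). Eif1a in the siRNA set, all Xbp1 ko, lay at 80, 57, 70 and 55 on arrays labelled IRE1 siRNA and at 61, 55, 57 and 64 on arrays labelled luciferase siRNA. Hepatocyte markers summed to between 36580 and 38261 in Xbp1 ko and between 41596 and 45686 in WT littermates, with 2 of 8 lower, and their part in the Eif1a difference was not tested.

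**Figure D4:**
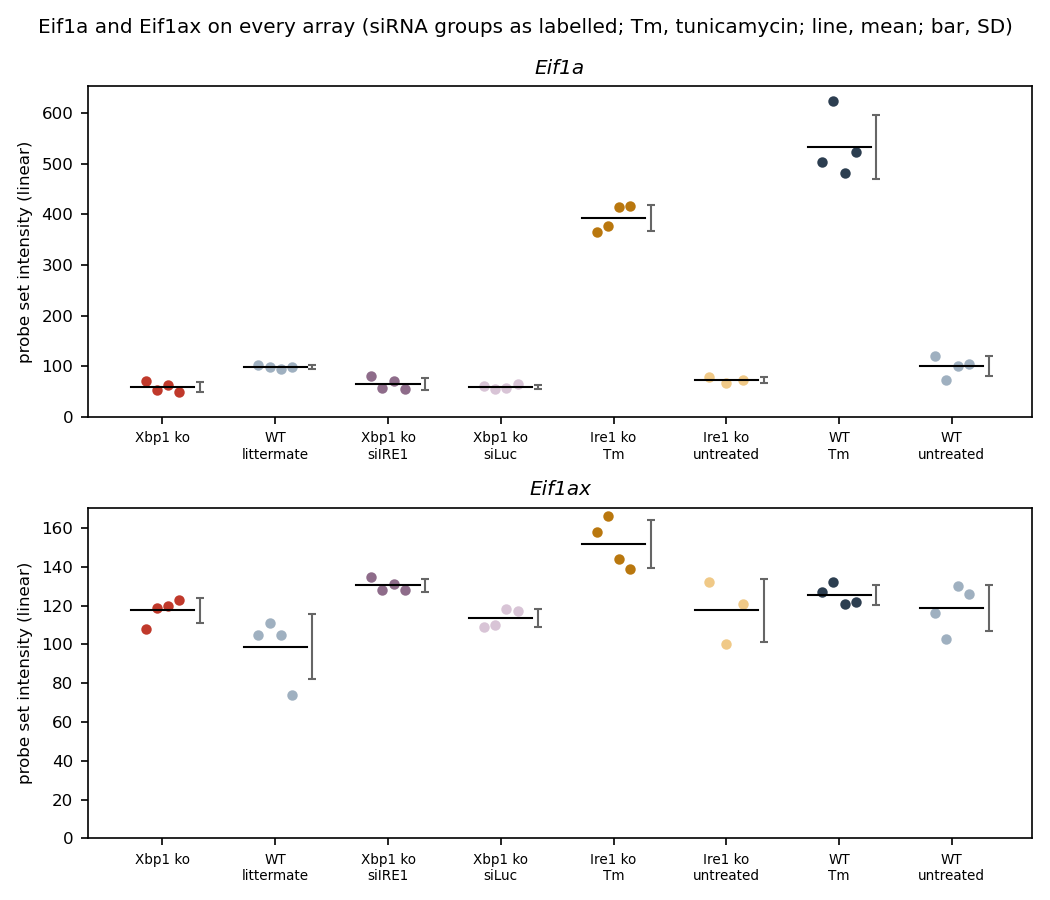
Probe set intensity (linear) of Eif1a and its X-linked copy Eif1ax on all 31 arrays in 8 groups; lines are means and bars SD. Eif1a stood between 365 and 625 on tunicamycin arrays, between 50 and 70 in Xbp1 ko and between 94 and 102 in WT littermates, while the treated and untreated WT arrays of Eif1ax overlapped.

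Eif4ebp1 stood at 272, 247, 248 and 261 in Xbp1 ko, against 229, 239, 230 and 239 in WT littermates. These arrays did not overlap, but the difference of 0.13 was not called (95% confidence interval 0.01 to 0.26, adjusted p = 0.328). In all, 3 of 36 initiation factor genes (8.33%) had every Xbp1 ko array above every WT array, where 3.28% of all genes did. For 2 of 36 (5.56%) the Xbp1 ko arrays all lay below, where 3.73% of all genes did. Eif4ebp2 stood at 102, 88, 93 and 73 in Xbp1 ko and at 106, 122, 103 and 83 in WT littermates, which overlapped (log2 -0.21, 95% confidence interval -0.55 to 0.12). Eif4a1 differed by 0.12 (-0.03 to 0.27), and Eif4e stayed at 5 or 6. Eif4e3 was at 49, 32, 56 and 54 in Xbp1 ko and at 28, 23, 32 and 28 in WT littermates, which met at 32 (log2 0.76, SE 0.193, adjusted p = 0.105).

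On arrays labelled IRE1 siRNA, against those labelled luciferase siRNA, 0 of 36 initiation factor genes were called by limma's test, where 1.79% of all genes were called (0.649% higher and 1.14% lower). At an unadjusted p under 0.05, 5 were higher and 1 was lower, as labelled, or 13.9% and 2.78%, where 9.87% of all genes were higher and 4.93% lower. Of 5829 bright genes, 998 were higher and 432 lower at that level. In 4 of 36 genes (11.1%) all arrays labelled IRE1 siRNA lay above all others, where 4.23% of all genes did, and in 0 below them, where 2.51% did. Eif1ax was at 135, 128, 131 and 128 on arrays labelled IRE1 siRNA and at 109, 110, 118 and 117 on those labelled luciferase siRNA, without overlap (log2 0.20, SE 0.0452, adjusted p = 0.0878). Eif4ebp1 differed by 0.08 (95% confidence interval -0.12 to 0.28), Eif4ebp2 by -0.08 (-0.31 to 0.16), Eif4a1 by 0.25 (0.09 to 0.41, adjusted p = 0.158) and Eif4e by 0.07.

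Other genes of the pathway were counted in 4 lists. After tunicamycin 17.4% of all genes rose and 10.3% fell in Ire1 ko, and 18.5% rose and 17.6% fell in WT. Among bright genes 32.2% rose and 22% fell in Ire1 ko, and 32.4% rose and 34% fell in WT. Of 18 genes of the eIF2 kinases, the eIF2 phosphatase and the ATF4 branch, 11 rose and 0 fell after tunicamycin in Ire1 ko, and 13 rose and 4 fell in WT. The CHOP gene Ddit3 rose and lay between 2896 and 3002 in treated and between 14 and 117 in untreated Ire1 ko, and between 3389 and 4138 in treated and between 11 and 18 in untreated WT. Atf3, another stress transcription factor, lay between 689 and 1178 in treated and between 5 and 8 in untreated Ire1 ko, and between 958 and 1551 in treated and between 5 and 6 in untreated WT. The ATF4 target Trib3 lay between 635 and 822 in treated and between 6 and 12 in untreated Ire1 ko, and between 447 and 687 in treated and between 5 and 8 in untreated WT. Untreated Atf3 and Trib3 were at the floor or near it, so no fold is given for them. Chac1, a glutathione-degrading ATF4 target, lay between 42 and 52 in treated and between 9 and 10 in untreated Ire1 ko, and between 330 and 407 in treated and between 11 and 24 in untreated WT. From these low untreated values the Chac1 effects differed by -2.30 (SE 0.271, adjusted p = 4.64e-05). The PERK gene Eif2ak3, at 17 or less in untreated liver, differed by -2.43 (SE 0.217, adjusted p = 3.89e-06), the adaptor gene Nck1 by -1.47 (adjusted p = 0.000514) and the phosphatase subunit gene Ppp1r15b by 0.53 (adjusted p = 0.0304). Outside the Ire1 experiment 2 of 18 fell in Xbp1 ko, where 2.07% of all genes were lower. These were Ppp1r15b, by 1.34 (adjusted p = 0.00043), and Dnajc3, a PERK inhibitor, by 0.91 (adjusted p = 0.000932). Ppp1r15b was also lower by 1.25 on arrays labelled IRE1 siRNA (adjusted p = 0.00866). It was the 1 gene of 18 called there, where 1.79% of all genes were called. In untreated Ire1 ko, Atf4 fell by 0.67 (adjusted p = 0.0228) and Dnajc3 by 0.53 (adjusted p = 0.0103).

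Of the genes of mTORC1 and regulators of the cap complex, 17 of 21 were tested. After tunicamycin 10 rose and 1 fell in Ire1 ko, and 11 rose and 1 fell in WT. Of all genes 17.4% rose in Ire1 ko and 18.5% in WT, and of bright genes 32.2% and 32.4%. Mknk1, a kinase of eIF4E, rose by 2.44 and 3.17. The mTORC1 inhibitor gene Ddit4 rose to between 15 and 70 in treated Ire1 ko and between 17 and 43 in treated WT, and stayed at 5 or less in untreated liver, at the floor. Paip2b, an inhibitor of poly(A)-binding protein, rose by 2.21 and 2.86. Pdcd4, an inhibitor of the eIF4A helicase, fell by 1.44 in Ire1 ko (adjusted p = 2.55e-06) and rose by 0.44 in WT (adjusted p = 0.0219), and the difference of its effects was -1.88 (SE 0.209, adjusted p = 2.68e-05). In the interaction Mknk1 was at -0.73 (adjusted p = 0.0292), Deptor, an mTOR inhibitor, at 0.65 (adjusted p = 0.0073) and Rheb, an mTORC1 activator, at -0.47 (adjusted p = 0.0424).

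Of other factors that load, scan with or recycle the small subunit, 12 of 14 were tested. After tunicamycin 10 rose and 1 fell in Ire1 ko, and 8 rose and 2 fell in WT. For this list and the next, 17.4% of all genes rose in Ire1 ko and 18.5% in WT, and 32.2% and 32.4% of bright genes. Ltv1, needed for maturation of the small subunit, rose by 2.27 and 2.13. Bzw2, a mimic of eIF5, rose to between 38 and 51 in treated Ire1 ko and between 23 and 31 in treated WT, against 10 or less in untreated liver. Of 13 elongation and termination factors, 9 rose in Ire1 ko and 10 in WT, and 0 fell. Etf1, the stop codon release factor, rose by 1.18 and 1.20. Dhps, the first enzyme of hypusine synthesis on eIF5A, rose by 2.16 and 0.97, with values of 19 or less in untreated liver, while Eif5a itself was not called. In the Xbp1, siRNA and untreated Ire1 comparisons 0 genes of these last 3 lists were called. Of all genes 2.71%, 1.79% and 0.943% were called there.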

How the data were processed

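The deposited intensities are linear values rounded to whole numbers, which the authors made with RMA in affy per the submitters' processing notes (versions not given in the sources used here). They were put on a log2 scale here. The array annotation gave 1 symbol to 28898 of 45037 probe sets, several to 551 and none to 15588. A gene was read from its brightest probe set over the 31 arrays. Models of 8, 8 and 15 arrays were fitted with limma 3.58.1 (R 4.3.3, intensity trend) to genes above the 30th percentile of an array on at least 3 arrays. Tests were two-sided, and the fits were tested on simulated data. Named by rule were up to 10 called genes per direction, the 4E-BP genes, Eif2b5, Eif4e and Eif4a1, and up to 4 called genes of each other list per comparison. Other genes of the family were added after their values were seen. Genes and lists were chosen with earlier results of these data known. Arrays of a group correlated between 0.984 and 0.993, and the number of arrays limits the precision. Alternatives changed the scaling, filter, probe set, variance model, arrays fitted and replicate block; the next brightest probe set was an alternative chosen after seeing the data.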

Additional observations from a re-analysis of the deposited data

Results flagged for a closer look

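The tunicamycin effect differed between Ire1 ko and WT, by the interaction test, for Eif4e (-2.21 on the log2 scale, Ire1 ko minus WT) and Eif4g3 (0.985). The Eif4e value rests on 4 treated WT arrays, since the other groups were at the floor.

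In 20 of 246 groups of 4 arrays, 1 array lay far from the other 3 by Dixon's test, which flags about 1 in 20 groups by chance. In the tunicamycin groups these were Eif3k at 276 (others 251 to 255) and Eif4a3 at 275 (314 to 318) in Ire1 ko, and Eif3b at 269 (231 to 234), Eif1b at 83 (65 to 67), Eif3f at 3787 (3608 to 3631) and Eif4e3 at 15 (23 to 24) in WT. In untreated WT they were Eif3b at 144 (120 to 122), Eif2d at 133 (124 to 125) and Eif3e at 377 (436 to 446). The Eif3b and Eif1b values of treated WT came from replicate 2.

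In Xbp1 ko it was Eif1ad at 23 (29 to 30). In WT littermates they were Eif1ax at 74 (105 to 111), Eif4g2 at 394 (513 to 518), Eif2b1 at 63 (56 to 57), Eif6 at 222 (192 to 196) and Eif4g3 at 50 (43 to 44). On arrays labelled IRE1 siRNA they were Eif2s2 at 129 (148 to 149), Eif3k at 273 (317 to 319) and Eif5 at 416 (550 to 577). On arrays labelled luciferase siRNA they were Eif3l at 298 (338 to 344) and Eif4h at 446 (546 to 552).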

How the results depend on the processing

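The tunicamycin counts moved by less than 1.5 times under every setting run, with 23 to 27 genes called in Ire1 ko and 25 to 27 in WT when 1 array was left out. In Xbp1 ko, 2 genes were called with a common median or a filter at an intensity of 16, and 0 to 2 without 1 array (0 without WT littermate replicate 1, 2 without Xbp1 ko replicate 2). On siRNA arrays 0 to 1 were called without 1 array (1 without luciferase replicate 4). In untreated Ire1 ko against WT, 1 gene was lower with no filter, the filter at 16, the mean over probe sets or no intensity trend, and 1 was higher with a fit over all 31 arrays. Leaving out 1 array gave 0 to 1 (1 higher without untreated Ire1 ko replicate 3, 1 lower without treated or untreated WT replicate 2). Between treated Ire1 ko and WT the filter at 16 gave 16 calls (4 higher, 12 lower), and leaving out 1 array gave 8 to 12. The interaction gave 1 call with the mean over probe sets and 2 to 3 without 1 array. Eif3f turned to 0.0402 in Ire1 ko and 0.0675 in WT with the mean over probe sets, and to 0.30 and 0.39 with its next brightest probe set, and Eif1ax to -0.00999 in Ire1 ko. The cause was not tested. With a filter at 16, Eif2b5 gave no value.

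With the replicate number as a block (replicate block), 28 genes were called after tunicamycin in Ire1 ko, 27 in WT, 9 between the treated genotypes, 2 in the interaction and 0 in each of the other comparisons, where the Eif1a call in Xbp1 ko was lost (adjusted p = 0.0732). Over all genes the block gave 197 calls in Xbp1 ko, against 380 without it, and 43 on siRNA arrays, against 251. Same-numbered arrays deviated together with correlations between -0.16 and 0.269 over all experiments, and between 0.036 and 0.269 in the Xbp1 experiment. The numbers were not taken as pairs. In the Xbp1 experiment 6 of 8 arrays were closest to their own number, and 0 of 8 siRNA arrays were. Whether the numbers pair in the Xbp1 experiment was not settled. A fit over all 31 arrays gave 571 calls over all genes in Xbp1 ko, and leaving out 1 array as few as 237. On siRNA arrays the filter at 16 gave 397 calls over all genes. Values at the floor, as for Eif2b5 and most of Eif4e, limit what the intensities can show.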
